A study of Homo sapiens with 3 samples.

Results

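The genes described are the ATF4 and unfolded protein response genes of T47D cells, 44 genes of the integrated and endoplasmic reticulum (ER) stress responses listed by symbol. A member was measured through every non-control probe set annotated to its symbol alone. Of the 44 named genes 43 were measured, among 19775 genes in all, by 93 probe sets. GPT2 had no such probe set in the platform annotation used here. The members were divided by role into an ATF4 branch of 24 genes (23 measured), 12 ER chaperones and folding factors, 3 genes of ER-associated degradation and 5 sensors with their transcription factors. Their promoter sequences were taken from a RefSeq table that matched 39 of the 44 by symbol.

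T47D cells are an established human breast cancer line with estrogen receptor α. The cells were kept for 4 h in medium with 10% charcoal-stripped serum and then received, for 3 h, ERα17p at 1 µM, estradiol at 1 µM or 0.1% ethanol as the vehicle. ERα17p is a peptide made after a stretch of that receptor, and estradiol is its main natural ligand. Each group was 1 Affymetrix HG-U133 Plus 2 array, and the labels do not say whether the treated cells also received ethanol. No error between cultures could be computed, so no p-value was computed and no difference below could be set against a spread between replicates. Nothing says that the groups came from more than 1 culture each. Each SD describes how the probe sets of a gene spread, with n their number.

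The integrated stress response begins when a kinase phosphorylates the initiation factor eIF2α. Bulk translation then falls while the messenger RNA of ATF4 is translated more, and ATF4 induces genes of amino acid synthesis and transport as well as stress effectors. Unfolded proteins in the ER activate the kinase PERK, which feeds the ATF4 branch, and also IRE1α and ATF6, which raise ER chaperones and degradation factors through XBP1 and the cleaved ATF6. Amino acid shortage reaches ATF4 through the kinase GCN2 without the ER sensors. The list thus holds targets that both kinds of stress share beside targets of the ER sensors alone.

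Different short promoter elements are known for the ATF4 and the ER branch. The elements searched were chosen because they are known for these branches. A match in a member is therefore no independent support for the grouping. The 250 bases before the start of each gene were searched on both strands for the ATF4 element TGATGNAA, for the XBP1 element TGACGTGG, and for the ER stress response element, which is CCAAT followed after 9 bases by CCACG. The ER stress response element stood in 5 of the 12 chaperone promoters, those of HSPA5, HSP90B1, CRELD2, CALR and CANX, and in the promoter of XBP1. It stood in 0 of 19 ATF4 branch promoters and in 0.0806% of the 27305 promoters in the table. The ATF4 element stood in 2 of the 19, CHAC1 and ASNS, and in HERPUD1, against 3.19% of all promoters. The XBP1 element was found in 0 of the 39 member promoters and in 0.667% of all. A match is a run of letters and was not tested as a binding site.

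The sequences that follow are from RefSeq, build GRCh38.p14, written 5′ to 3′ on the strand of the gene and ending at the base before its start, with the elements in capitals. CHAC1 (chr15:40953221-40953470, plus strand) holds the ATF4 element on the opposite strand, and ASNS (chr7:97872409-97872658, minus strand) holds it on the strand of the gene. HSP90B1 (chr12:103930160-103930409, plus strand) holds the ER stress response element once on each strand, and CALR (chr19:12938359-12938608, plus strand) holds it on the opposite strand.
CHAC1: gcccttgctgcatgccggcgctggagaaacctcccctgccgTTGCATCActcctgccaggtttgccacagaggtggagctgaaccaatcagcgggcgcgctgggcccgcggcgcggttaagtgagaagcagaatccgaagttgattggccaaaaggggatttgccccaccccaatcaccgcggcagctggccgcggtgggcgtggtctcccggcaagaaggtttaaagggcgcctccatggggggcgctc
ASNS: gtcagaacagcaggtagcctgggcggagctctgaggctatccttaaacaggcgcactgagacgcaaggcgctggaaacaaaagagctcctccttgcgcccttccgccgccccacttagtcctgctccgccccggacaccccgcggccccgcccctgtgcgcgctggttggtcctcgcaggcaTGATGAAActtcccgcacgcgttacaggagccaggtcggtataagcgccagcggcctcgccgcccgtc
HSP90B1: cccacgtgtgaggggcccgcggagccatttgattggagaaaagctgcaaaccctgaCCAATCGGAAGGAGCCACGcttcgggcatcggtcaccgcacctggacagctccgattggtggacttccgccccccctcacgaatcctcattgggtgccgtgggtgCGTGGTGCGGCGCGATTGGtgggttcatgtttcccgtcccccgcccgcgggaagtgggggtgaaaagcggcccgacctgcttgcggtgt
CALR: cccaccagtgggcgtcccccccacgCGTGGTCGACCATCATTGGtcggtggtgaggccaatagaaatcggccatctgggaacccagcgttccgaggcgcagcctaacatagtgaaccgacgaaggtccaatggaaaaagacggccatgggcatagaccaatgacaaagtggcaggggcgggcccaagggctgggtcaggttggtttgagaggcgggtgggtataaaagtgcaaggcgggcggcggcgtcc

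The deposited values are relative to an unstated baseline of each probe set, and their scale was taken to be log2. Only differences between arrays can therefore be read, not which gene was more abundant, and marker genes cannot show by their level that the cells were T47D. Of the 9 luminal markers listed for T47D, 1 was at least 1.5-fold lower (TFF3, −1.66 with ERα17p and −1.84 with estradiol) and 1 higher (PGR, 0.89 and 1.44) against vehicle. Of the 9 listed markers of basal, stromal and blood cells 8 were measured. With ERα17p 0 were lower and 1 higher, and with estradiol 1 lower and 1 higher. The higher marker was LUM, at 1.43 ± 1.53 (SD, n = 2) and 1.05 ± 0.97 (SD, n = 2). The lower marker was COL1A1, at −0.63 ± 0.66 (SD, n = 5) with estradiol. Of all genes 8.76% were lower and 6.88% higher with ERα17p, and 8.42% and 6.48% with estradiol. The vehicle array stood apart from both others. The SD of the values over all genes was 0.139 on the ERα17p array and 0.130 on the estradiol array, against 0.371 on the vehicle array. These SDs depend on how the unstated baseline was set. The 3′ less the 5′ control probe set of ACTB was −0.17 with ERα17p, −0.29 with estradiol and 0.52 with vehicle, and the 18S ribosomal RNA controls averaged −0.0071, 0.11 and −1.76 in that order. These measures of RNA quality and labelling moved with every comparison with vehicle below, and their part in the results was not tested.

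The members followed the same pattern. None of the 43 members was 1.5-fold or more from the baseline on the ERα17p array or on the estradiol array, where their values ran between −0.25 and 0.42 and between −0.56 and 0.22. On the vehicle array 21 of 43 were that far from it, 17 above and 4 below, with values between −0.97 and 3.64. For all genes the share that far from the baseline was 0.288% on the ERα17p array, 0.197% on the estradiol array and 11.1% on the vehicle array. The sources do not say which arrays set the baseline. If these arrays did, those that were alike would lie near it by construction. Distance from it is therefore not read here as a response. A comparison of the agents with each other, which leaves out the vehicle array, is given after the comparisons with vehicle.

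**Figure D1:**
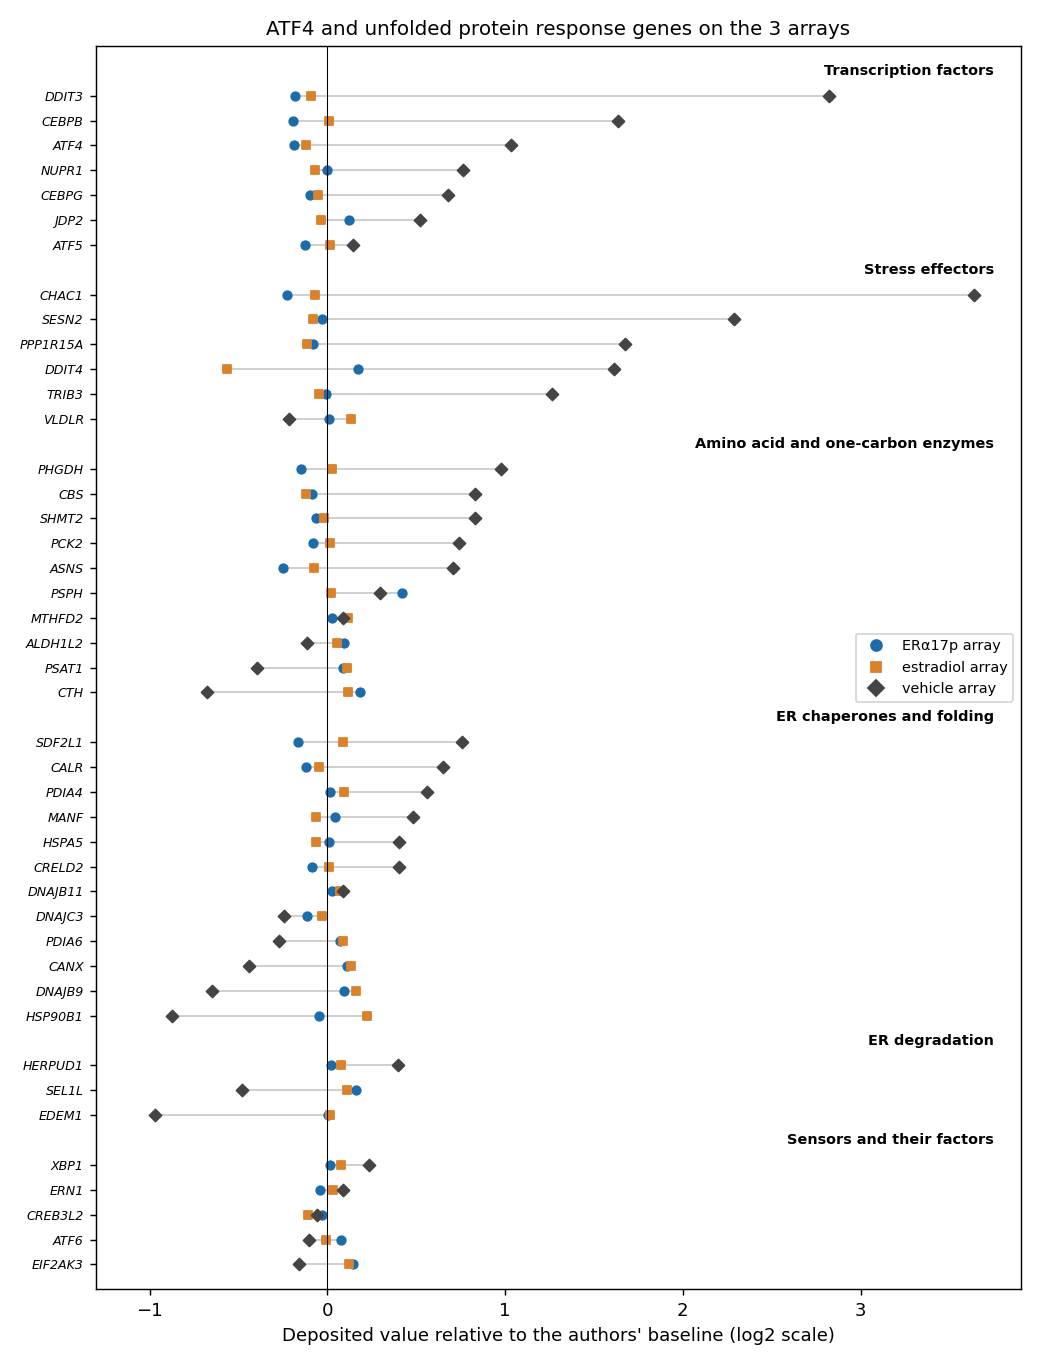
Deposited value of each measured member, relative to the authors' baseline on the log2 scale (x axis), on the ERα17p (circle), estradiol (square) and vehicle (diamond) arrays, with genes grouped by role and each point the mean over the probe sets of a gene. The vehicle values spread from −0.97 for EDEM1 to 3.64 for CHAC1, while all values of the other arrays lie between −0.56 and 0.42.

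The transcription factors of the ATF4 branch were lower with either agent than with vehicle. In the ERα17p comparison 5 of 7 were at least 1.5-fold lower, where 8.76% of all genes were, and in the estradiol comparison also 5 of 7, where 8.42% were. DDIT3, which encodes the pro-apoptotic factor CHOP, stood at −0.18 with ERα17p, −0.095 with estradiol and 2.82 with vehicle. Its difference from vehicle was −3.00 with ERα17p and −2.92 with estradiol, or 8.01-fold and 7.55-fold lower, the 2nd and the 3rd lowest of all genes. Both treated values lay near the baseline and far below the vehicle value.

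CEBPB, a leucine zipper factor that pairs with ATF4 and CHOP, stood at −0.19 with ERα17p, 0.011 with estradiol and 1.64 with vehicle, and differed from vehicle by −1.83 and −1.63. ATF4 itself, the central factor of the branch, stood at −0.19 with ERα17p, −0.12 with estradiol and 1.03 with vehicle. Its messenger RNA was thus 2.33-fold and 2.22-fold lower than with vehicle, by −1.22 and −1.15 from 1 probe set. ATF4 is controlled to a large part in translation, which the arrays do not measure. In RNA of whole cultures, fewer cells with a transcript and less of it per cell cannot be told apart.

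CEBPG, a dimer partner of ATF4, differed from vehicle by −0.78 ± 0.13 (SD, n = 2) with ERα17p and −0.73 ± 0.12 (SD, n = 2) with estradiol. NUPR1, a small nuclear protein induced by stress, differed by −0.76 and −0.83. The remaining factors did not reach 1.5-fold. JDP2, a repressor of the AP-1 family, differed by −0.39 ± 0.29 (SD, n = 2) with ERα17p and −0.56 ± 0.72 (SD, n = 2) with estradiol, the estradiol value lying within its SD. ATF5, a factor induced together with ATF4, stood within its SD of 0, at −0.27 ± 0.38 (SD, n = 4) and −0.13 ± 0.36 (SD, n = 4).

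The stress effectors that ATF4 and CHOP induce included the gene farthest from vehicle, and 5 of 6 were at least 2-fold lower with each agent, where 1.87% of all genes were with ERα17p and 1.63% with estradiol. CHAC1, an enzyme that breaks down glutathione and whose promoter is shown above, stood at −0.23 with ERα17p, −0.072 with estradiol and 3.64 with vehicle. Relative to the unstated baseline, the vehicle value was the highest of all 19775 genes on that array, which does not rank its abundance. With both treated values near the baseline, this rank is not separate from the ranks of its differences. CHAC1 was 14.6-fold lower with ERα17p and 13.1-fold lower with estradiol, at −3.87 and −3.71 from 1 probe set, in both comparisons the lowest of all genes.

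SESN2, an inhibitor of mTORC1 that senses leucine, stood at −0.031 with ERα17p, −0.081 with estradiol and 2.29 with vehicle. It differed from vehicle by −2.32 ± 0.23 (SD, n = 2) and −2.37 ± 0.46 (SD, n = 2), and neither of its probe sets was less than 2-fold lower. PPP1R15A, the subunit GADD34 that returns eIF2α to its unphosphorylated form, stood at −0.082, −0.12 and 1.68 on the ERα17p, estradiol and vehicle arrays. Its differences from vehicle were −1.76 ± 0.36 (SD, n = 2) and −1.79 ± 0.25 (SD, n = 2), with both probe sets lower.

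TRIB3, a pseudokinase induced by CHOP that restrains ATF4 and CHOP, stood at −0.0063 with ERα17p, −0.045 with estradiol and 1.26 with vehicle, and differed by −1.27 ± 0.57 (SD, n = 2) and −1.31 ± 0.68 (SD, n = 2). DDIT4, an mTORC1 inhibitor also called REDD1, stood at 0.17 with ERα17p, −0.56 with estradiol and 1.61 with vehicle. It was the member on which the treated arrays lay farthest apart, with differences from vehicle of −1.44 and −2.18. VLDLR, a lipoprotein receptor induced through PERK and ATF4, did not follow the other effectors, at 0.010 with ERα17p, 0.13 with estradiol and −0.22 with vehicle, a difference of 0.23 and 0.35.

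The enzymes of amino acid and one-carbon metabolism were divided. Of the 10 measured, 5 were at least 1.5-fold lower with each agent and 1 was higher. The shares of all genes were 8.76% lower and 6.88% higher with ERα17p, and 8.42% lower and 6.48% higher with estradiol. The 5 lower enzymes were the same with both agents, namely PHGDH, ASNS, CBS, SHMT2 and PCK2, and the higher enzyme was CTH. The median of the 10 was −0.44 with ERα17p and −0.50 with estradiol, against −1.60 and −1.99 for the 6 effectors and 0.0011 and −0.0043 for all genes.

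In serine synthesis, PHGDH, the first enzyme, stood at −0.15 with ERα17p, 0.028 with estradiol and 0.98 with vehicle, a difference of −1.13 and −0.95. PSAT1, the next enzyme, stood at 0.085, 0.11 and −0.39 on the same arrays, and its difference of 0.48 ± 0.69 (SD, n = 2) and 0.50 ± 1.03 (SD, n = 2) lay within its SD. PSPH, the last enzyme, differed by 0.13 ± 1.17 (SD, n = 3) and −0.27 ± 1.32 (SD, n = 3), again within its SD. The median of its probe sets was −0.28 with ERα17p and −0.75 with estradiol, and its unmarked probe set gave −0.78 and −1.29, on the same side as PHGDH.

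In the mitochondrial folate pathway, SHMT2, which splits serine into glycine and a one-carbon unit, stood at −0.065 with ERα17p, −0.019 with estradiol and 0.83 with vehicle. Its differences of −0.89 ± 0.18 (SD, n = 3) and −0.85 ± 0.20 (SD, n = 3) were several times their SD. MTHFD2 and ALDH1L2, which oxidise the one-carbon unit further, differed by −0.063 ± 0.21 (SD, n = 2) and 0.20 ± 0.40 (SD, n = 3) with ERα17p, and by 0.030 ± 0.38 (SD, n = 2) and 0.17 ± 0.25 (SD, n = 3) with estradiol. All 4 of these values lay within their SD.

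In transsulfuration, which makes cysteine from homocysteine, the enzymes of the consecutive steps lay on opposite sides of the vehicle. CBS, which makes cystathionine, stood at −0.089 with ERα17p, −0.12 with estradiol and 0.83 with vehicle, and differed by −0.92 ± 0.42 (SD, n = 3) and −0.95 ± 0.31 (SD, n = 3). CTH, which cleaves cystathionine, stood at 0.18 with ERα17p, 0.12 with estradiol and −0.68 with vehicle, and differed by 0.86 ± 0.043 (SD, n = 2) and 0.79 ± 0.35 (SD, n = 2). Each gene's probe sets were all on its own side of 0.

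ASNS, asparagine synthetase and a classical target of ATF4, whose promoter is shown above, stood at −0.25 with ERα17p, −0.075 with estradiol and 0.71 with vehicle. It differed by −0.96 ± 0.63 (SD, n = 2) and −0.78 ± 0.66 (SD, n = 2). Its probe sets gave −1.40 and −0.51 with ERα17p and −1.25 and −0.31 with estradiol, so the gene was below 1.5-fold by the probe set that is not marked as open to cross-hybridisation. PCK2, the mitochondrial phosphoenolpyruvate carboxykinase, differed by −0.82 with ERα17p and −0.72 with estradiol.

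The ER chaperones and folding factors did not share 1 direction. Of 12, with each agent, 2 were at least 1.5-fold lower (SDF2L1 and CALR), 2 higher (HSP90B1 and DNAJB9) and 8 neither. Of all genes 8.76% were lower and 6.88% higher with ERα17p, and 8.42% lower and 6.48% higher with estradiol. A count of 2 of 12 is a larger share than these, but with 12 genes it is not read as a difference. Their median was −0.23 with ERα17p and −0.20 with estradiol. HSP90B1, the ER form of HSP90 also called GRP94, stood at −0.048 with ERα17p, 0.22 with estradiol and −0.87 with vehicle, and was higher than with vehicle by 0.82 ± 0.13 (SD, n = 2) and 1.10 ± 0.083 (SD, n = 2). Both of its probe sets are marked as open to cross-hybridisation, so it had no unmarked measurement. HSPA5, the central chaperone BiP, stood at 0.0075 with ERα17p, −0.062 with estradiol and 0.40 with vehicle, a difference of −0.39 ± 0.49 (SD, n = 2) and −0.46 ± 0.51 (SD, n = 2) within its SD.

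The chaperones whose promoters hold the ER stress response element lay on both sides of the vehicle, with CALR, CRELD2 and HSPA5 below it and HSP90B1 and CANX above it. CALR, calreticulin, a lectin chaperone that holds glycoproteins, stood at −0.12 with ERα17p, −0.045 with estradiol and 0.65 with vehicle, and differed by −0.77 ± 0.42 (SD, n = 3) and −0.69 ± 0.50 (SD, n = 3). Only 1 of its 3 probe sets, marked as open to cross-hybridisation, was at least 1.5-fold lower. The median of the probe sets was −0.56 with ERα17p and −0.46 with estradiol, and the probe set not so marked gave −0.50 and −0.46, all below 1.5-fold. CANX, calnexin, its membrane-bound relative, stood at 0.11 with ERα17p, 0.14 with estradiol and −0.44 with vehicle, and differed by 0.55 ± 0.40 (SD, n = 5) and 0.57 ± 0.33 (SD, n = 5), with all 5 probe sets above 0 in both comparisons. CRELD2, a secreted ER stress protein, differed by −0.49 and −0.39, below 1.5-fold.

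The cochaperones of BiP were likewise split. DNAJB9, also called ERdj4, stood at 0.095 with ERα17p, 0.16 with estradiol and −0.65 with vehicle, and was higher by 0.74 ± 0.38 (SD, n = 3) and 0.81 ± 0.32 (SD, n = 3), with each of its probe sets above 0. SDF2L1, which binds DNAJB11, stood at −0.16 with ERα17p, 0.089 with estradiol and 0.76 with vehicle, a difference of −0.92 and −0.67 from 1 probe set. DNAJB11 differed by −0.058 and −0.014, and DNAJC3, which also inhibits PERK, by 0.13 ± 0.43 (SD, n = 4) and 0.21 ± 0.59 (SD, n = 4).

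The disulfide isomerases PDIA4 and PDIA6 were on opposite sides as well. PDIA4 differed from vehicle by −0.55 ± 0.45 (SD, n = 2) with ERα17p and −0.47 ± 0.20 (SD, n = 2) with estradiol. PDIA6 was higher by 0.34 ± 0.038 (SD, n = 4) and 0.36 ± 0.023 (SD, n = 4), and its 4 probe sets lay close together. MANF, a secreted protein that holds nucleotide-bound BiP, differed by −0.44 and −0.54.

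In ER-associated degradation, the pathway that returns misfolded proteins to the cytosol, 2 of 3 members were at least 1.5-fold higher with each agent, where 6.88% of all genes were with ERα17p and 6.48% with estradiol. EDEM1, which recognises mannose-trimmed glycoproteins, stood at 0.0028 with ERα17p, 0.015 with estradiol and −0.97 with vehicle, so it was higher by 0.97 and 0.99 from 1 probe set. SEL1L, the adaptor of the ubiquitin ligase HRD1, stood at 0.16, 0.11 and −0.48 on the ERα17p, estradiol and vehicle arrays, and was higher by 0.64 ± 0.52 (SD, n = 4) and 0.59 ± 0.41 (SD, n = 4). All 4 of its probe sets are marked as open to cross-hybridisation, and 1 differed by 0.012 with ERα17p. HERPUD1, a scaffold of the same complex that ATF4 also induces, differed by −0.38 ± 0.70 (SD, n = 2) and −0.32 ± 0.70 (SD, n = 2), with its probe sets on opposite sides of 0.

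The sensors and their factors did not reach 1.5-fold in any comparison, with 5 of 5 measured. Among all genes 8.76% were lower and 6.88% higher with ERα17p, and 8.42% and 6.48% with estradiol. Between the agents 0.607% were lower and 0.521% higher. With 5 genes, a count of 0 lay near these shares and does not set the sensors apart. EIF2AK3, the kinase PERK, differed from vehicle by 0.30 ± 0.37 (SD, n = 2) with ERα17p and 0.28 ± 0.075 (SD, n = 2) with estradiol. ERN1, the kinase and nuclease IRE1α, differed by −0.13 ± 0.11 (SD, n = 3) and −0.054 ± 0.17 (SD, n = 3). ATF6 differed by 0.18 ± 0.42 (SD, n = 4) and 0.097 ± 0.46 (SD, n = 4), and CREB3L2, a related membrane-bound factor, by 0.028 ± 0.15 (SD, n = 3) and −0.048 ± 0.26 (SD, n = 3). XBP1, the factor that IRE1α activates by splicing and that is abundant in luminal breast cells, differed by −0.22 ± 0.75 (SD, n = 2) and −0.16 ± 0.88 (SD, n = 2). The probe sets of XBP1 disagreed, at −0.75 and 0.31 with ERα17p and −0.78 and 0.46 with estradiol.

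The ATF4 branch was thus lower against vehicle than the ER chaperones by their medians. With ERα17p the median of the 23 ATF4 branch genes was −0.89 and that of the 12 chaperones −0.23, 15 of 23 against 2 of 12 being at least 1.5-fold lower. With estradiol the medians were −0.83 and −0.20, with 15 of 23 and 2 of 12 at least 1.5-fold lower. Of all genes 8.76% were that much lower with ERα17p and 8.42% with estradiol. The chaperone count of 2 of 12 is a larger share than these, but too small a count to be read as a difference. The ATF4 branch median less the chaperone median was −0.67 with ERα17p and −0.63 with estradiol. Both comparisons use the same vehicle array, so they are not independent of each other. At 2-fold, 9 of the 43 members were lower and 0 higher with ERα17p, where 1.87% and 1.9% of all genes were. With estradiol 8 were lower and 1 higher, where 1.63% and 1.57% were. For the enzymes alone in place of the whole branch, the same difference was −0.22 with ERα17p and −0.30 with estradiol, since the factors and effectors held the larger differences. Over the chaperones with more than 1 probe set, 8 of 12, the chaperone median was 0.23 and 0.29, on the other side of 0.

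**Figure D2:**
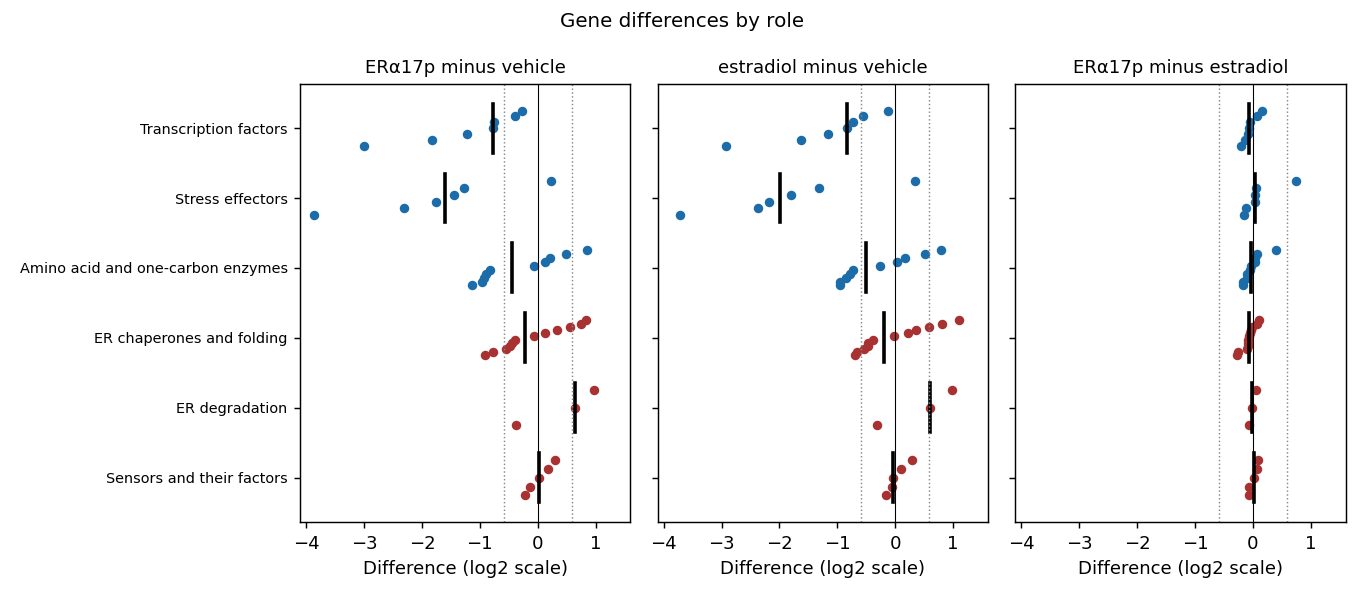
Difference of each measured member on the log2 scale (x axis) by role, for ERα17p minus vehicle, estradiol minus vehicle and ERα17p minus estradiol, with a point for each gene, a bar at the median of the role and dotted lines at 1.5-fold. Factors and effectors extend to −3.87 and −3.71 against vehicle, chaperones lie on both sides of 0, and between the agents 42 of 43 genes lie inside the dotted lines.

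The spread over probe sets shows how far the probe sets of a gene agreed, and is not the error of a treatment difference. Of the 43 measured members 29 had more than 1 probe set, with a median SD of 0.40 for ERα17p minus vehicle and 0.36 for estradiol minus vehicle. The difference was larger than its SD for 17 and 16 of the 29. In the ERα17p comparison 4 members, and in the estradiol comparison 5, had probe sets at 0.25 or more on both sides of 0. PSPH had the widest spread, with −0.78, −0.28 and 1.44 with ERα17p and −1.29, −0.75 and 1.22 with estradiol. The high value in each case was from a probe set marked as open to cross-hybridisation, and without the probe sets so marked PSPH stood at −0.78 and −1.29. The mark was given to every identifier ending in _x_at or _s_at, which denotes shared sequence. It does not show that unrelated transcripts were bound. By its unmarked probe set alone PSPH was at least 1.5-fold lower with both agents. Of the 93 member probe sets 40 are so marked. ATF5, NUPR1, DDIT4, SESN2, VLDLR, PSAT1, HSP90B1, SDF2L1 and SEL1L had no unmarked probe set. HSPA5 gave −0.74 and −0.048 by its probe sets with ERα17p, and −0.82 and −0.10 with estradiol.

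**Figure D3:**
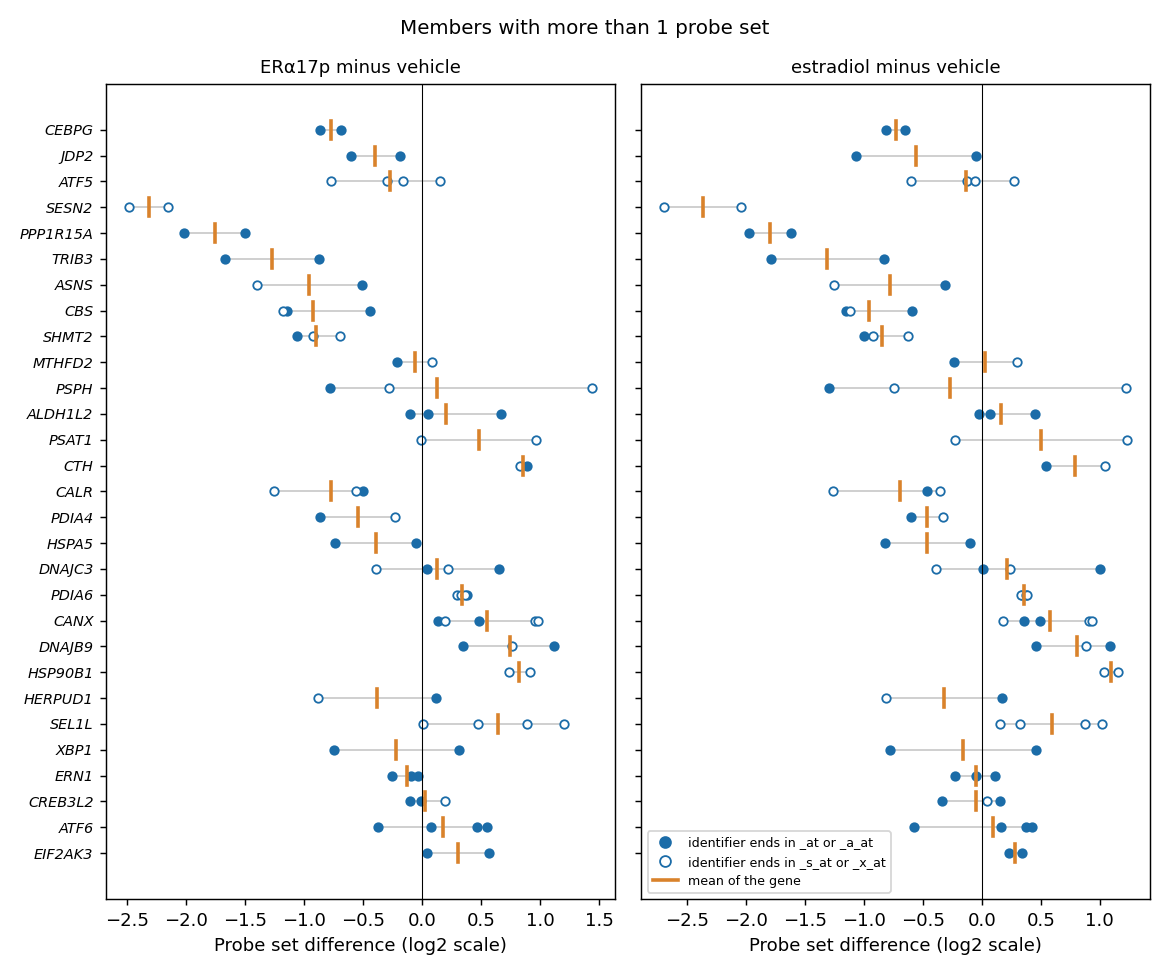
Differences from vehicle on the log2 scale (x axis) of each probe set of the 29 members with more than 1, for ERα17p and for estradiol, with open circles for identifiers that mark shared sequence and a bar at the mean of the gene. The probe sets of SESN2, PPP1R15A and SHMT2 all lie below 0, those of CANX, SEL1L and DNAJB9 all above 0, and those of PSPH from −0.78 to 1.44 with ERα17p.

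Between the agents, at the same molar dose and time and without the vehicle array, the members were close. With ERα17p against estradiol 0 of 43 members was at least 1.5-fold lower, where 0.607% of all genes were, and 1 was at least 1.5-fold higher, where 0.521% were. The differences ran between −0.27 and 0.74, and their median SD over probe sets was 0.12. The median was −0.045 for the ATF4 branch, −0.072 for the chaperones and 0.0062 for all genes. At 2-fold 0 members were lower and 0 higher, where 0.086% and 0.0607% of all genes were. These values are from single arrays, so they do not show that the agents act alike.

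DDIT4 was the member past 1.5-fold. It stood at 0.17 with ERα17p and −0.56 with estradiol, from 1 probe set marked as open to cross-hybridisation. With ERα17p it was thus 1.67-fold higher, a difference of 0.74. This was the 40th highest difference of 19775 genes. The estradiol value was the lowest of any member on either treated array. PSPH was next, at 0.42 with ERα17p and 0.021 with estradiol, a difference of 0.40 ± 0.16 (SD, n = 3), and all 3 of its probe sets were higher with ERα17p, by 0.22 to 0.51.

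Lower with ERα17p than with estradiol, though below 1.5-fold, were HSP90B1 at −0.27 ± 0.043 (SD, n = 2), SDF2L1 at −0.25, CEBPB at −0.21, PHGDH at −0.18 and ASNS at −0.17 ± 0.034 (SD, n = 2). With the probe sets that HSP90B1 shares with another gene added, its difference was −0.13. CHAC1 and DDIT3, which were so far from vehicle, differed between the agents by −0.15 and −0.086. For 8 of the 29 members with more than 1 probe set the difference between the agents was larger than its SD. Of the 12 chaperones 10 lay below 0 and 2 above, between −0.27 and 0.11, and none reached 1.5-fold. Of all 19775 genes 9569 lay below 0 and 10199 above. Other ER genes, listed below, lay mostly on the other side of 0. Of 23 other ER folding and secretory genes 8 lay below 0 and 15 above, and of 11 other ER degradation genes 1 and 10.

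**Figure D4:**
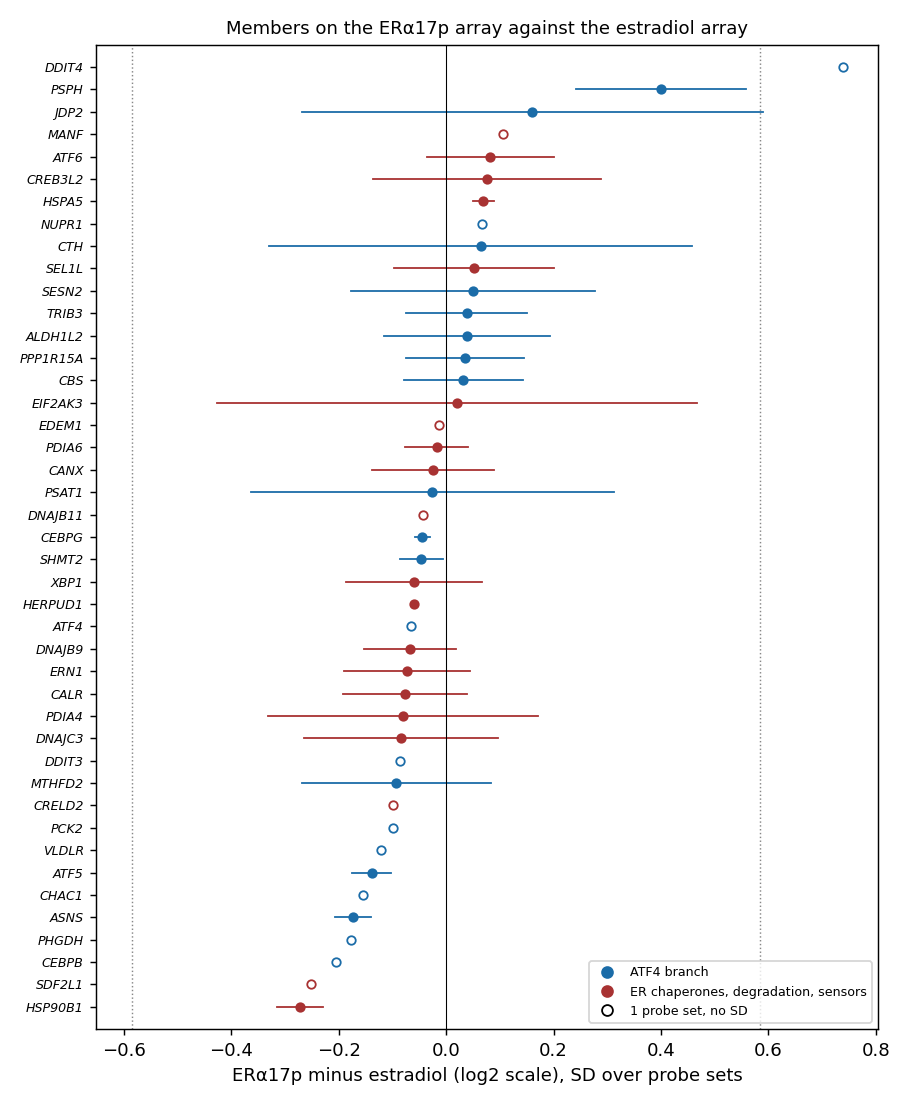
ERα17p minus estradiol on the log2 scale (x axis) for each of the 43 measured members, with bars for the SD over probe sets, open circles for genes with 1 probe set and dotted lines at 1.5-fold. DDIT4 at 0.74 lies outside the dotted lines, and PSPH follows at 0.40.

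Other genes of the same pathways were read from 5 lists with 94 genes. Of the other ATF4 targets 27 of 28 were measured, and against vehicle 13 were at least 1.5-fold lower and 1 higher with ERα17p, 10 and 1 with estradiol. The shares of all genes were 8.76% lower and 6.88% higher with ERα17p, and 8.42% and 6.48% with estradiol. Their median was −0.56 and −0.48. INHBE, an inhibin subunit induced by ER stress, stood at 0.082 with ERα17p, −0.021 with estradiol and 3.06 with vehicle. SLC3A2, the heavy chain of the amino acid exchangers, stood at −0.29 with ERα17p, 0.021 with estradiol and 1.74 with vehicle. ATF3, a factor induced by ATF4, differed by −1.09 ± 1.80 (SD, n = 3) and −1.20 ± 1.54 (SD, n = 3), within its SD in both comparisons.

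Between the agents, 2 of the 27 other ATF4 targets measured were at least 1.5-fold lower with ERα17p and 1 was higher. Of all genes 0.607% were that much lower and 0.521% higher. STC2, a secreted glycoprotein, stood at −0.36 with ERα17p and 0.34 with estradiol, a difference of −0.70 ± 0.25 (SD, n = 2). SLC7A5, the light chain that takes up large neutral amino acids, stood at −0.34 and 0.30, a difference of −0.65. CCPG1, a receptor for autophagy of the ER, stood at 0.51 and −0.18, a difference of 0.69.

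The medians of the other ER genes lay nearer to 0, and of all genes 8.76% were lower and 6.88% higher with ERα17p, and 8.42% and 6.48% with estradiol. Of the other ER folding and secretory genes 23 of 27 were measured. At 1.5-fold 2 were lower and 0 higher with ERα17p and 3 lower and 0 higher with estradiol. Their median was 0.14 and 0.097. HYOU1, an ER chaperone of the HSP70 class, differed by −0.75 and −0.71. Of the other ER degradation genes 11 of 13 were measured, with 1 lower and 3 higher with ERα17p and 2 lower and 3 higher with estradiol, and their median was 0.26 and 0.22. EDEM3, a relative of EDEM1, was higher by 1.40 ± 0.69 (SD, n = 3) and 1.17 ± 0.88 (SD, n = 3), while the lectin OS9 was lower, at −1.13 ± 0.11 (SD, n = 2) and −1.27 ± 0.23 (SD, n = 2).

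The machinery around eIF2α had counts near those of all genes, which were 8.76% lower and 6.88% higher with ERα17p, and 8.42% and 6.48% with estradiol. With 15 of 15 genes measured, it had 1 gene lower and 2 higher with ERα17p, and 1 lower and 1 higher with estradiol. PPP1CA, the catalytic phosphatase that PPP1R15A directs to eIF2α, stood at −0.086 with ERα17p, 0.027 with estradiol and 1.24 with vehicle. EIF2AK4, the kinase GCN2 that senses uncharged transfer RNA, was higher by 0.70 ± 0.0095 (SD, n = 2) with ERα17p and by 0.44 ± 0.049 (SD, n = 2), below 1.5-fold, with estradiol. IMPACT, an inhibitor of GCN2, was higher by 0.59 ± 0.27 (SD, n = 2) and 0.65 ± 0.48 (SD, n = 2). Of 10 further sensors and processing factors measured, 1 was lower (CREB3) and 1 higher (NFE2L2) with ERα17p, at −0.64 and 0.69 ± 0.33 (SD, n = 3), and 0 reached 1.5-fold with estradiol.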

How the data were processed

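RNA of T47D cells was hybridised to Affymetrix HG-U133 Plus 2 arrays, 3 in all, 1 for each group by its label. The deposited log2 values were made by the authors with RMA, per the submitters' processing notes. They lie around 0 on every array, as values centred on a baseline do. That baseline, the log base, the RMA software and its version were not given in the sources used here. Base 2 was assumed because RMA gives log2 values, and another base would alter the fold sizes. A baseline common to all arrays cancels in differences between arrays, which could not be checked.

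Of 54675 probe sets 62 are controls and 41091 were annotated to 1 gene by the platform annotation and were used. The value of a gene is the mean over its probe sets. Differences were counted at 1.5-fold, with no significance test because each group has 1 array. Precision is limited by there being 3 arrays, and the signal over background of a probe set is not known. Any of the 44 members could be named, and of each other list at most 3 genes per comparison, those with the largest difference in size. The promoters printed were those of 2 ATF4 branch genes and 2 chaperones that hold a searched element and differ most from vehicle. The members, lists and elements were chosen with earlier results of these data known. Alternatives were other thresholds, the median of probe sets, probe sets in place of genes, genes with more than 1 probe set, probe sets ending in _x_at or _s_at left out, centring on the median of all genes, list means and other list limits. The gene step was tested on simulated data. Python 3.11.15, numpy 2.4.6, pandas 2.3.3 and matplotlib 3.10.9 were used.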

Additional observations from a re-analysis of the deposited data

Results flagged for a closer look

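HSP90B1 had a further probe set that is annotated to both HSP90B1 and the microRNA gene MIR3652, and it was left out of the values above. It read 0.033 on the ERα17p array, −0.0017 on the estradiol array and −1.497 on the vehicle array. It was higher than vehicle by 1.53 with ERα17p and 1.496 with estradiol, a signal outside the main measurement in the same direction as the gene. A second probe set with that annotation differed by −0.086 and −0.081.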

How the results depend on the processing

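Each median and count was recomputed under the alternatives, and 99 values stayed close to the reported ones (a median by less than the members' median SD over probe sets, a count within 1.5 times) while 24 did not. No median or gene past 1.5-fold in the reported values turned its sign. Smaller values could turn. PSPH with ERα17p went from 0.13 to −0.78 without probe sets ending in _x_at or _s_at. With the enzymes in place of the whole ATF4 branch, the branch median for ERα17p minus vehicle was −0.44 and its difference from the chaperones −0.22. The chaperone median against vehicle was 0.23 with ERα17p and 0.29 with estradiol over genes with more than 1 probe set, and 0.20 and 0.24 over probe sets, so its sign is not settled. At 2-fold, 9 members were lower and 0 higher with ERα17p and 8 lower and 1 higher with estradiol, and between the agents 0 were higher. At the looser threshold tried, 8 were higher with ERα17p and 9 with estradiol, and 2 between the agents. Of genes with more than 1 probe set, 8 were lower with either agent and 0 higher between the agents. Counted by the 93 member probe sets, 31 were lower and 15 higher with ERα17p and 33 lower and 13 higher with estradiol. Apart from 2-fold, the shares of all genes or all probe sets under these alternatives were not computed, so these counts are not read as results about the members. Without probe sets ending in _x_at or _s_at, 3 were higher with ERα17p, 2 with estradiol and 0 between the agents, since 34 members were then measured and DDIT4 was not among them. ASNS was below 1.5-fold there, at −0.51 with ERα17p and −0.31 with estradiol, CALR at −0.50 and −0.46, and CTH with estradiol at 0.55, while PDIA4 passed it at −0.86 and −0.60 and PSPH at −0.78 and −1.29. By the median of probe sets CALR was below it at −0.56 and −0.46 and PSPH passed it with estradiol at −0.75. Adding the probe sets of several genes, an alternative chosen after seeing the data, changed none of these counts or medians and gave 0.90 for HSP90B1 with estradiol and −0.13 for ERα17p minus estradiol. No paired analysis was possible because each group has 1 array. Leaving out the vehicle array leaves only the comparison of the agents.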
